A study of Mus musculus with 8 samples.

Results

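Cpt1a, Acadvl, Acadl, Acadm, Hadha, Ehhadh, Bdh1 and Ppargc1a, 8 genes of mitochondrial and peroxisomal fatty acid oxidation and of ketone body metabolism, were described in bulk RNA sequencing of mouse kidney, lung, liver and small intestine. They were chosen by name, as rows of the deposited expression table, and make up 8 of its 52195 genes. The mice were inbred C57BL/6J males (C57BL/6 in the labels) aged 6 to 10 weeks, and each tissue was sequenced from 2 of them, which gave 8 libraries. All groups share strain, sex and age range and no treatment or engineered allele is given for any of them. The tissues were taken whole, washed and ground, so every library mixes the cell types of an organ, and in such libraries fewer cells of a type and less RNA per cell cannot be told apart. The feeding state of the mice, to which several of these genes respond, is not given in the sources used here. Levels are given as FPKM, read fragments divided by the exon length of the gene in kilobases and by the size of the library.

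Long-chain fatty acids enter the mitochondrial matrix as carnitine esters, formed by carnitine palmitoyltransferase 1 at the outer membrane and converted back by carnitine palmitoyltransferase 2 inside. In the matrix they are shortened in a repeating cycle whose first step belongs to acyl-CoA dehydrogenases of different chain-length preference and whose last steps, for long chains, belong to the trifunctional protein, while peroxisomes run a parallel cycle with their own enzymes. In hepatocytes the acetyl-CoA that results can be turned into ketone bodies, which other organs take up and oxidize, and the nuclear receptor PPARα with the coactivator PGC-1α is a known driver of the genes of this pathway. The kidney proximal tubule is known for a high use of fatty acids as fuel.

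The number of reads counted on genes, worked out from the spacing of low values, was between 9399956 in liver replicate 1 and 22133910 in kidney replicate 1, summed over the genes with a known exon length, and between 57 and 14892 reads lay behind each value of the 8 genes. A level of 3 reads, taken as the limit of detection, was at most 0.163 FPKM for any of them, below all of their values. Markers of hepatocytes, enterocytes, distal nephron and alveolar and airway epithelium were each higher in both libraries of their own tissue than in every other library (7 of 7, 6 of 6, 5 of 5 and 6 of 6 genes), as were 5 of 6 proximal tubule markers in kidney. Of all genes tested, 5.76% stood so in liver, 12.8% in small intestine, 8.60% in kidney and 51.4% in lung. Kidney replicate 2 read lower than replicate 1 in long genes, with a median log2 difference of -0.46 among genes with at least 4934 bases of exon, against 0.00 among those with up to 2354 bases. Tissues also differed in the middle of their distributions. On log2(FPKM + 1), the median difference over all 16328 genes tested was 0.82 for lung against the other 3 tissues, -0.72 for liver, -0.34 for kidney and -0.01 for small intestine. Values scaled by the median of ratios, which brings these medians to between -0.14 and -0.02, are therefore given beside the deposited ones, and a call is an adjusted p under 0.05 with an absolute log2 difference over 1.

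The 250 bases before the start site of 4 of the genes are shown because their enzymes take the first oxidation step for fatty acids of different chain length (Acadvl, Acadl, Acadm) or the corresponding later steps in peroxisomes (Ehhadh), and because their levels were distributed differently over the tissues. Sequences are those of RefSeq, build GRCm38.p6, written 5′ to 3′ along the gene, from chr11:70015429-70015678 for Acadvl, chr1:66863310-66863559 for Acadl, chr3:153944644-153944893 for Acadm and chr16:21787835-21788084 for Ehhadh, all on the minus strand. Capitals mark AGGTCA, the half-site of many nuclear receptors, read on either strand.
Acadvl: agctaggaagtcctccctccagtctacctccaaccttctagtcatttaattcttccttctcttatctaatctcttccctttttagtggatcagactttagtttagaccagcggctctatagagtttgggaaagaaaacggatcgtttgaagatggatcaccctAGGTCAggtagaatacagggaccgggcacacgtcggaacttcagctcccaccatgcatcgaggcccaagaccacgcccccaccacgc
Acadl: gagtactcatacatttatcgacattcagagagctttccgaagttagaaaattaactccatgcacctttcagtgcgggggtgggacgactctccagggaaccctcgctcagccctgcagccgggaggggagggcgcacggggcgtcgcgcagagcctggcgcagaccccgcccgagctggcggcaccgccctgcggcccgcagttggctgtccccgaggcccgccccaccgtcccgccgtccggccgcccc
Acadm: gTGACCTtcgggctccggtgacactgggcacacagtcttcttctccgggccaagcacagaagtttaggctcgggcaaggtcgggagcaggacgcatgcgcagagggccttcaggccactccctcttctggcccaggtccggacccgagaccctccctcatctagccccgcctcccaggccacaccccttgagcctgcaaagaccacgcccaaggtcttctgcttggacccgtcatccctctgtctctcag
Ehhadh: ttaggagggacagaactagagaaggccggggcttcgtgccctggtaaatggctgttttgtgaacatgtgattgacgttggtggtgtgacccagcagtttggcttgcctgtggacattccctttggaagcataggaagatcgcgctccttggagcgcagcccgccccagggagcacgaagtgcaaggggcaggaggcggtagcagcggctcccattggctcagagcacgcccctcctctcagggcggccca

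All 8 genes had an entry in the promoter table, 9 windows in all since Bdh1 has 2. The half-site AGGTCA lay in 3 of the 9, those of Acadm at position -249, Cpt1a at -94 and Acadvl at -87 counted from the RefSeq start, against 14.0% of all 32851 promoters. AGGTCANAGGTCA, 2 half-sites with 1 base between them and the form that PPARα is known to bind, was in none of the 9 and in 0.033% of all promoters. TNAAGGTCA, the element of oestrogen-related receptors, which holds the half-site, was also in none, against 1.14% of all. The GC box GGGCGG was in the windows of Cpt1a, Acadl, Hadha and Ehhadh (4 of 9, against 32.7% of all), CCAAT in those of Cpt1a and Ehhadh (33.9% of all) and TATAAA in none (12.4% of all). Both strands were searched for each motif. The RefSeq start is not always the outer end of the gene as annotated by GENCODE, whose spans are given for each gene here, and the windows of Cpt1a and 1 of the 2 of Bdh1 lie inside those spans, those of Hadha, Ppargc1a and the other of Bdh1 in part. These are matches of letters in the first 250 bases only.

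Kidney held the highest levels of Cpt1a, Acadl, Acadm, Ehhadh and Ppargc1a, liver those of Acadvl and Bdh1, and small intestine that of Hadha, by the mean of the deposited values. By the same means lung was lowest for all but Cpt1a, where it stood beside small intestine. For Acadl, Hadha and Ppargc1a the lung libraries overlapped those of another tissue. The distance from the highest to the lowest tissue was 2.42-fold for Hadha, 2.47-fold for Cpt1a and 2.56-fold for Acadl, but 26.4-fold for Bdh1 and 48.0-fold for Ehhadh. All 8 genes passed the filter on low values (at least 1 FPKM in 2 or more libraries).

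**Figure D1:**
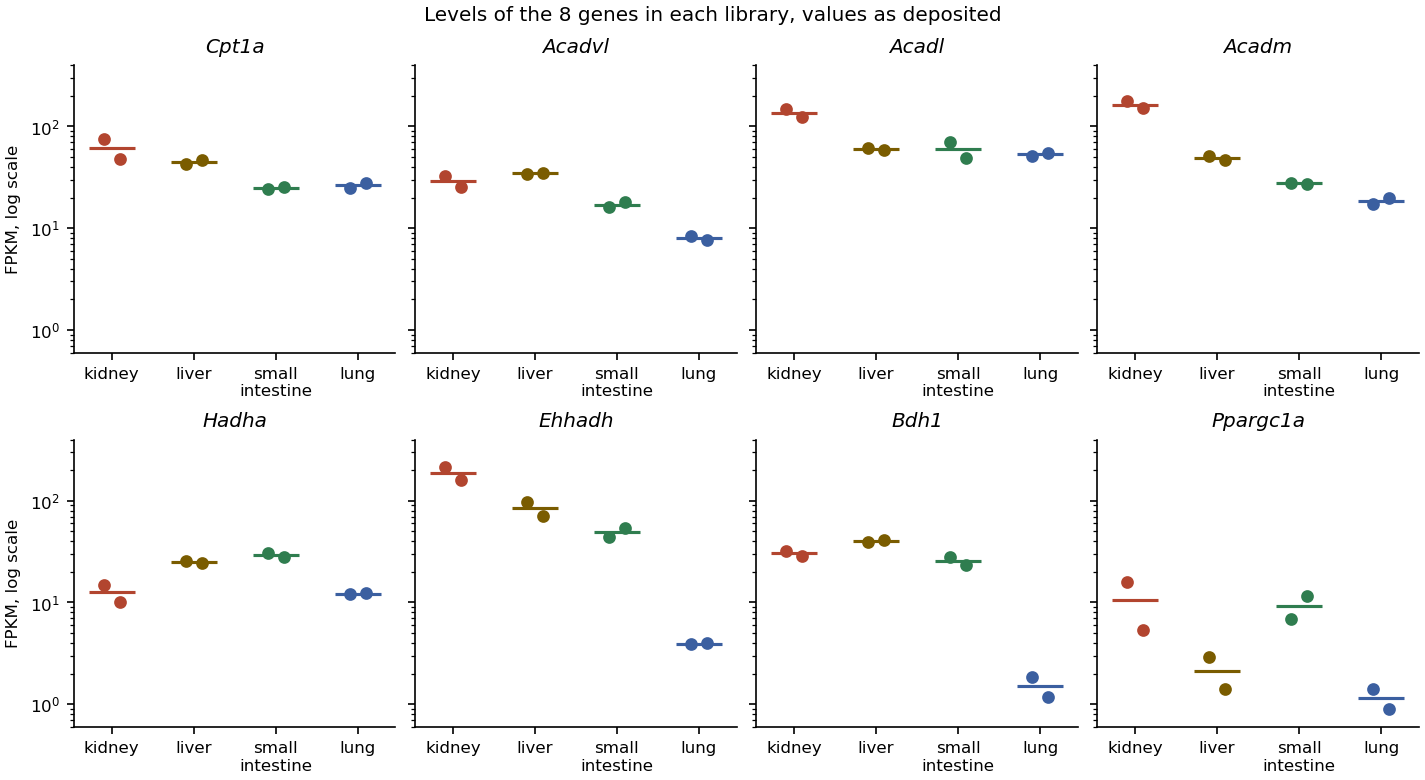
FPKM as deposited (vertical axis, log scale) of each of the 8 genes in the 2 libraries of kidney, liver, small intestine and lung. Points are libraries and lines are the means of 2. The lung points of Ehhadh and Bdh1 lie between 1.19 and 4.0 FPKM, far below those of the other tissues, while Cpt1a and Acadl stay within 2.6-fold across tissue means.

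Compared with the mean of the other 3 tissues by limma, kidney had 5 of the 8 genes called higher, Acadl, Acadm, Ehhadh, Bdh1 and Ppargc1a, where 8.65% of all genes tested were called higher. None was called lower (16.1% of all genes were). Hadha alone was lower at an unadjusted p under 0.05, and also after adjustment (-0.71, adjusted p = 0.00566), but within the fold threshold. The median of the 8 differences was 1.20 on the log2 scale, against -0.34 over all genes. With median-of-ratios scaling Cpt1a joined the others, 6 genes in all (11.5% of all genes), and again none was called lower (12.1%).

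Lung had 5 of the 8 called lower, Acadvl, Acadm, Ehhadh, Bdh1 and Ppargc1a (8.26% of all genes), and none called higher, either by the call or at an unadjusted p under 0.05, where 40.7% of all genes were called higher. The median of the 8 differences was -1.62, against 0.82 over all genes. With median-of-ratios scaling all 8 were called lower (16% of all genes) and none higher (14.6%).

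Liver had 3 called higher, Acadvl, Ehhadh and Bdh1 (6.56% of all genes), and none lower by limma (32.7% of all genes). Ppargc1a alone was lower at an unadjusted p under 0.05, and also after adjustment (-0.99, adjusted p = 0.0464), but within the fold threshold. Scaled to the same sum without mitochondrial genes and pseudogenes, Acadvl was no longer called (0.90) and Ppargc1a was called lower (-1.15). With median-of-ratios scaling 6 of the 8 were called higher, all but Acadl and Ppargc1a (12.3% of all genes), and none lower (13.9%). Small intestine had 1 called higher, Ppargc1a (13.7% of all genes), and none lower (11.3%), with 2 genes, Cpt1a and Acadm, lower at an unadjusted p under 0.05. Under median-of-ratios scaling 1 gene was called higher (13%) and 1, Acadm, lower (11.6%). A count of 1 gene of 8 is close to the share over all genes in these comparisons. The 4 comparisons use the same 8 libraries and are not independent of each other.

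**Figure D2:**
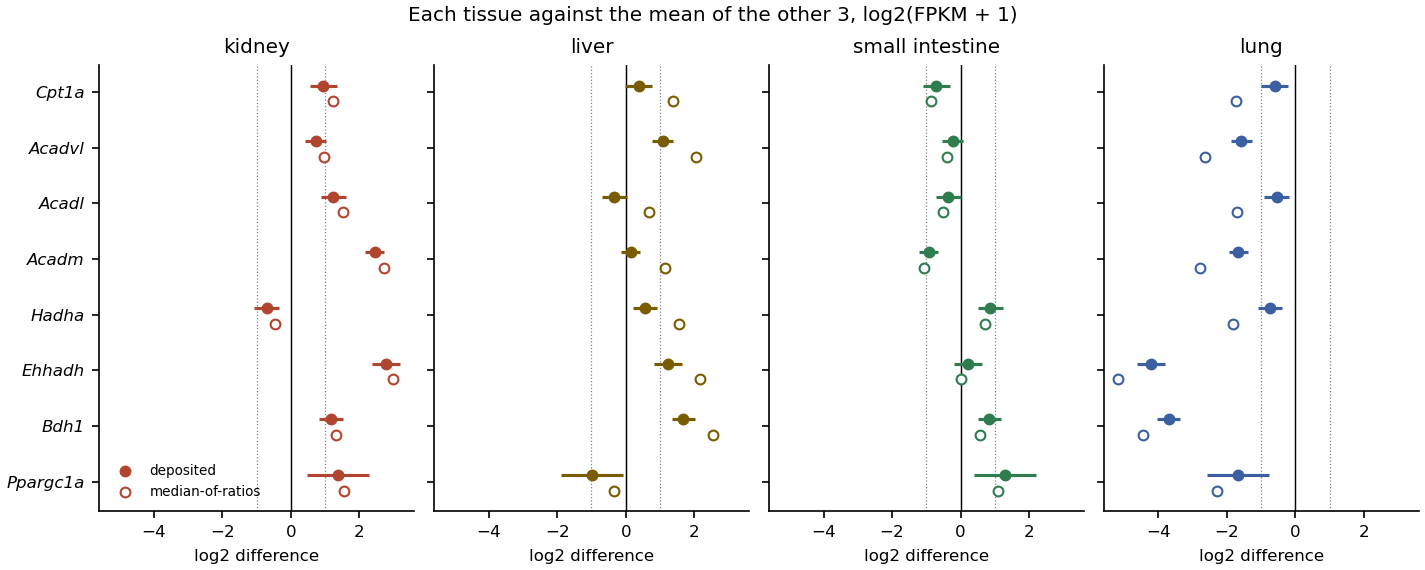
Log2 difference of each gene between 1 tissue and the mean of the other 3 on log2(FPKM + 1). Filled points are deposited values with 95% confidence intervals, open points are values after median-of-ratios scaling, and dotted lines mark differences of 1 in either direction. Scaling moved all 8 lung values down and all 8 liver values up.

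Cpt1a, carnitine palmitoyltransferase 1A, catalyses the rate-limiting entry step and is the isoform known from liver. It lies on chromosome 19, bases 3322334 to 3385733 of GRCm38 on the plus strand, with 7642 bases of annotated exon. Its level was 74.96 and 48.3 FPKM in kidney, 42.9 and 46.5 in liver, 25.1 and 27.8 in lung and 24.5 and 25.3 in small intestine. Both kidney and both liver libraries were above the 4 others, and the lower kidney library was close to the liver pair. That library was replicate 2, in which long genes, Cpt1a among them, read lower. Kidney exceeded small intestine by 1.24 ± 0.21 (log2, SE; adjusted p = 0.00186) and lung by 1.16 ± 0.21 (adjusted p = 0.00155). Its difference from liver was 0.42, with a 95% interval from -0.06 to 0.91, and lung and small intestine differed by 0.08 (interval -0.40 to 0.56). After median-of-ratios scaling liver was the highest tissue and lung the lowest, and lung was then lower than the mean of the others by 1.74 in place of 0.61 (adjusted p = 2.02e-05).

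With deposited values the other genes of the shuttle did not share the order of Cpt1a. Cpt2, which completes the transfer inside the mitochondrion, stood at 51.1 and 45.5 FPKM in kidney, 52.3 and 42.5 in liver, 60.1 and 51.3 in small intestine but only 10.2 and 9.83 in lung, and was called lower in lung (-2.21 ± 0.13, adjusted p = 3.92e-06). The ratio of Cpt1a to Cpt2 within a library was therefore highest in lung, 2.45 and 2.82, and lowest in small intestine, 0.408 and 0.493. In kidney (1.47 and 1.06) and liver (0.820 and 1.09) the ratios overlapped. After median-of-ratios scaling Cpt2, like Cpt1a, was called higher in liver (1.60, adjusted p = 0.000219) and lower in lung (-3.29, adjusted p = 5.04e-06). Slc25a20, the carnitine-acylcarnitine carrier, ranged from 6.25 to 15.3 FPKM and was called in no tissue with deposited values, but lower in lung (-1.74, adjusted p = 1.58e-05) and higher in liver (1.41, adjusted p = 5.96e-05) after median-of-ratios scaling. Cpt1b, the isoform of muscle, had between 0 and 6 reads in a library and was under 3 reads in 7 of 8. Of its exons 81.4% overlap another annotated gene, so that its level is uncertain, and no ratio to it is given.

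Acadvl, Acadl and Acadm encode the very long-, long- and medium-chain acyl-CoA dehydrogenases, whose start-site sequences are given above. Acadm had the clearest tissue order of the 3. Its level was 177 and 151 FPKM in kidney, 51.1 and 46.7 in liver, 28.1 and 27.2 in small intestine, with 17.3 and 19.7 in lung, with no overlap between any tissues. Kidney was higher than the mean of the other 3 tissues by 2.44 ± 0.12 (adjusted p = 4.27e-06) and lung lower by 1.67 ± 0.12 (adjusted p = 9.77e-06). The gene lies on chromosome 3, bases 153922357 to 153944632, minus strand.

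Acadl (chromosome 1, bases 66830839 to 66863277, minus strand) was highest in kidney. It read 148 and 125 FPKM there, 61.1 and 58.1 in liver, 70.6 and 48.7 in small intestine, with 51.5 and 54.9 in lung. Small intestine spanned the liver and lung values, and no 2 of these 3 tissues differed by more than 0.16 on the log2 scale, with intervals of at most 0.61 in either direction. This held for deposited values only. After median-of-ratios scaling lung was lower than liver by 1.79 (adjusted p = 0.000307) and than small intestine by 0.91, and liver was higher than small intestine by 0.88, the last 2 within the fold threshold. Kidney exceeded the mean of the 3 by 1.24 ± 0.16 (adjusted p = 0.000405). In lung the difference was -0.55 with deposited values and -1.70 after median-of-ratios scaling, and in liver it went from -0.33 to 0.68.

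Acadvl (chromosome 11, bases 70010183 to 70015411, minus strand) was highest in liver, at 34.5 and 35.0 FPKM, followed by kidney at 32.3 and 25.6, small intestine at 16.2 and 18.0 and lung at 8.35 and 7.58. With deposited values liver and kidney differed by 0.26 (interval -0.11 to 0.64), and lung was lower than the mean of the others by 1.58 ± 0.13 (adjusted p = 2.02e-05). After median-of-ratios scaling kidney was below liver by 0.80 ± 0.17 (adjusted p = 0.00827), within the fold threshold, and the differences from the mean of the others were 2.05 in liver and -2.63 in lung. Of its exon length 42.9% also belongs to the annotated exons of the neighbouring gene Dvl2, so that its level depends on how the reads there were assigned, which is not given in the sources used here.

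With deposited values Acads, the short-chain enzyme, was highest in kidney like Acadm and Acadl, at 71.0 and 72.7 FPKM. Liver followed at 53.1 and 57.2, small intestine at 28.2 and 23.5 and lung at 11.0 and 11.5. After median-of-ratios scaling Acads was called higher in both liver and kidney, with the larger difference in liver (1.94 against 1.73). As shares of the summed FPKM of the 4 genes, Acadm held 40.9% ± 0.706 in kidney (SD, n = 2) but 20.3% ± 1.02 in lung, 21.4% ± 2.46 in small intestine and 24.6% ± 1.35 in liver. Acadl held 58.5% ± 0.114 in lung, 45.4% ± 5.53 in small intestine, 33.9% ± 0.821 in kidney and 30.0% ± 0.764 in liver. Liver had the largest shares of Acadvl, 17.5% ± 0.380, and Acads, 27.8% ± 1.73. Shares depend on the exon length by which counts were divided. With the length of the principal transcript instead, a length chosen after the data were seen, Acadm held 54.1% in kidney and Acadl 48.6% in lung. Kidney then still had the highest Acadm share and lung the highest Acadl share.

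**Figure D3:**
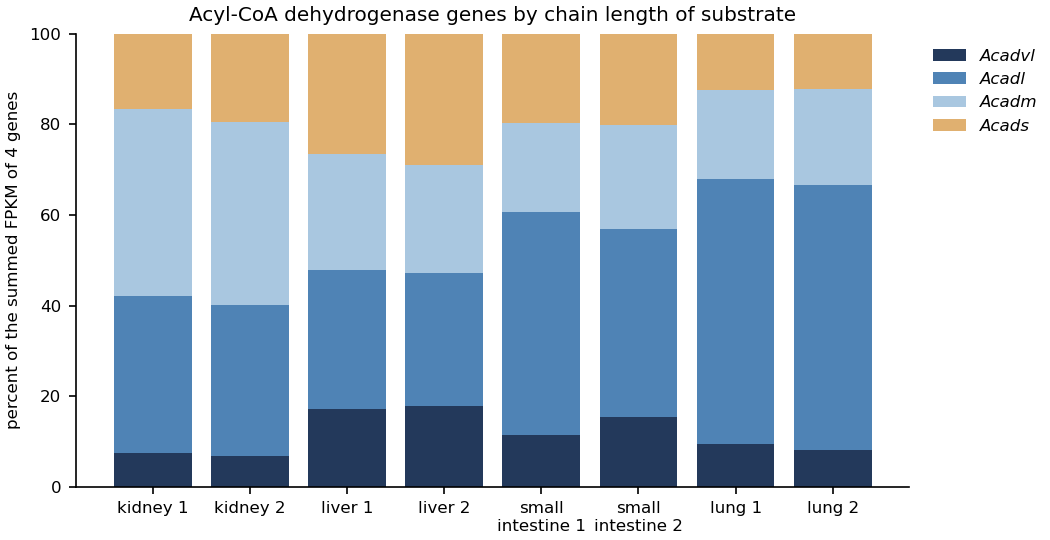
Share of Acadvl, Acadl, Acadm and Acads, from bottom to top, in the summed FPKM of these 4 acyl-CoA dehydrogenase genes (vertical axis, percent) in each of the 8 libraries. The Acadm part is about 41% in kidney and between 19.6% and 25.6% elsewhere, and the Acadl part is over 58% in lung.

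Hadha encodes the α subunit of the mitochondrial trifunctional protein, which hydrates and dehydrogenates long-chain intermediates, and Ehhadh the bifunctional enzyme that takes the same steps in peroxisomes. Their tissue patterns went apart. Hadha (chromosome 5, bases 30118304 to 30155162, minus strand) was at 30.8 and 28.2 FPKM in small intestine, 25.5 and 24.4 in liver, 15.0 and 10.2 in kidney and 12.1 and 12.3 in lung. It was the only one of the 8 genes whose kidney value lay below the mean of the other tissues (-0.71 ± 0.15, not past the fold threshold). With 8730 bases of exon, Hadha is in the class of long genes that read lower in kidney replicate 2. Kidney was lower than small intestine by 1.19 ± 0.19 (adjusted p = 0.0014), and kidney and lung differed by 0.02 (interval -0.42 to 0.46). After median-of-ratios scaling kidney was lower than small intestine by 0.89, within the fold threshold, and higher than lung by 1.02, and liver became the highest tissue. Kidney was then called lower than liver, at -1.50 (adjusted p = 0.000204) against -0.96 with deposited values.

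Ehhadh (chromosome 16, bases 21761287 to 21787807, minus strand) had the widest range of the 8. Its level was 216 and 161 FPKM in kidney, 97.6 and 71.2 in liver, 43.6 and 54.1 in small intestine but only 3.87 and 4.0 in lung. No 2 tissues overlapped. Kidney was higher than the mean of the others by 2.78 ± 0.18 (adjusted p = 1.43e-05), liver by 1.24 ± 0.18 (adjusted p = 0.000471), and lung was lower by 4.22 ± 0.18 (adjusted p = 9.24e-07). Liver and small intestine differed by 0.77 (interval 0.27 to 1.27), within the fold threshold.

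The ratio of Ehhadh to Hadha within a library was 14.4 and 15.8 in kidney, 3.82 and 2.91 in liver, 1.42 and 1.92 in small intestine, with 0.320 and 0.326 in lung, a 46.8-fold distance between the tissue means of kidney and lung. Every tissue stood apart from its neighbours in this order. The annotated exons of Hadha sum to 8730 bases against 4017 in its principal transcript, which lowers its FPKM. With principal transcript lengths the mean ratios were 6.95, 1.53, 0.759 and 0.149, in the same order. Hadhb, the β subunit that pairs with Hadha, read 35.2 and 28.9 FPKM in kidney, 29.6 and 28.5 in liver, 36.4 and 38.1 in small intestine, with 17.3 and 17.5 in lung. The transcripts of the 2 subunits were thus not in a constant proportion across the tissues. Hadha to Hadhb was 0.426 and 0.352 in kidney, against 0.864 and 0.858 in liver, 0.844 and 0.741 in small intestine, with 0.700 and 0.702 in lung. Of the Hadhb sequence 23.7% of the 31-base words occur in other annotated genes, several of them pseudogenes, so that its level is less certain.

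Bdh1, the mitochondrial 3-hydroxybutyrate dehydrogenase, interconverts acetoacetate and 3-hydroxybutyrate and so serves both the making and the use of ketone bodies. It lies on chromosome 16, bases 31422280 to 31458901, plus strand. Its level was 39.1 and 41.1 FPKM in liver, 32.0 and 28.8 in kidney, 28.1 and 23.2 in small intestine and 1.86 and 1.19 in lung. Liver was above every other library, kidney and small intestine lay close together, and lung was set apart. Lung was lower than the mean of the others by 3.70 ± 0.15 (adjusted p = 8.27e-07), liver higher by 1.69 ± 0.15 (adjusted p = 4.78e-05) and kidney by 1.17 ± 0.15 (adjusted p = 0.0004). Liver and kidney differed by 0.39 (interval -0.03 to 0.81) and kidney and small intestine by 0.24 (interval -0.18 to 0.66) with deposited values. After median-of-ratios scaling kidney was below liver by 0.93 ± 0.20 (adjusted p = 0.00814), within the fold threshold, and above small intestine by 0.55 (adjusted p = 0.0529). The lung values rest on 71 and 57 reads. Of the exon length of Bdh1 13.7% overlaps another annotated gene, Gm15743.

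Oxct1, the transferase that commits ketone bodies to oxidation, was at 364 and 323 FPKM in kidney, 34.9 and 26.7 in lung, 29.1 and 23.3 in small intestine and 1.65 and 3.32 in liver. It was higher in kidney by 4.59 ± 0.21 (adjusted p = 3.16e-06) and lower in liver by 4.30 ± 0.21 (adjusted p = 2.5e-06). Bdh1 to Oxct1 was 23.7 and 12.4 in liver, 0.965 and 0.996 in small intestine, 0.0879 and 0.0891 in kidney and 0.0533 and 0.0443 in lung. Liver and kidney, the 2 tissues with the most Bdh1, differed in this ratio by more than any spread between replicates, with small intestine between them. With deposited values the Oxct1 level in lung was near that of small intestine while the Bdh1 level was far below it. After median-of-ratios scaling Oxct1 was called lower in lung (-1.08, adjusted p = 0.00416) and not in small intestine (-0.37).

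**Figure D4:**
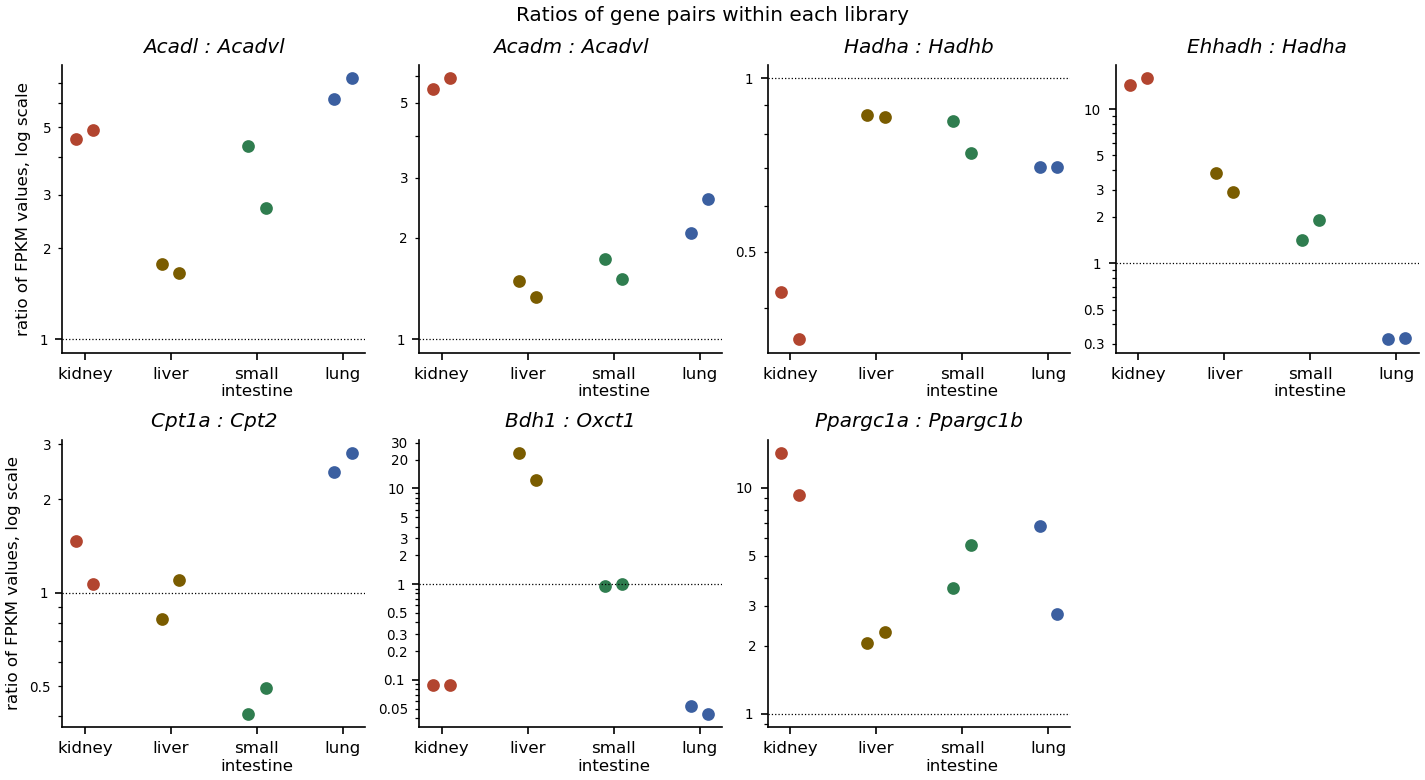
Ratio of the FPKM values of 2 genes in the same library (vertical axis, log scale), which is free of scaling between libraries, for 7 pairs of genes. Points are the 2 libraries of each tissue and the dotted line marks a ratio of 1. Ehhadh to Hadha falls from 15.8 to 0.320 over the libraries and Bdh1 to Oxct1 from 23.7 to 0.0443, while the kidney and liver points of Cpt1a to Cpt2 overlap.

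Ppargc1a encodes PGC-1α, the coactivator of mitochondrial and fatty acid oxidation genes. It lies on chromosome 5, bases 51454250 to 51567726, minus strand. Its level was 15.9 and 5.39 FPKM in kidney, 6.95 and 11.5 in small intestine, 2.88 and 1.40 in liver and 1.40 and 0.891 in lung. Kidney and small intestine overlapped each other and lay above both other tissues, and liver and lung met at 1.40. Kidney was higher than the mean of the others by 1.37 ± 0.39 (adjusted p = 0.0183), small intestine by 1.29 ± 0.39 (adjusted p = 0.0242), and lung was lower by 1.68 ± 0.39 (adjusted p = 0.00465). These calls rest on few libraries, and those in kidney and small intestine were lost with no filter on low values. The replicates differed 2.95-fold in kidney, 2.06-fold in liver and 1.66-fold in small intestine. The kidney difference without kidney replicate 1 was 0.67 and no longer called. The small intestine call was lost without liver replicate 2 (1.18), small intestine replicate 1 (1.62) or small intestine replicate 2 (0.97). Ppargc1a has 6592 bases of exon, in the class of genes that read lower in kidney replicate 2, as are Cpt1a (7642 bases) and Hadha (8730 bases). Its own difference between the kidney libraries, -1.40 on the log2 scale, was larger than the -0.15 to -0.62 of the other 7 genes. The part of exon length in the kidney differences of Ppargc1a, Cpt1a and Hadha was not tested.

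Ppara, the nuclear receptor with which PGC-1α works, was at 12.8 and 14.9 FPKM in liver, 11.5 and 4.76 in kidney, 1.36 and 4.44 in small intestine and 0.454 and 0.524 in lung. It was called higher in liver (2.06 ± 0.37, adjusted p = 0.00155) and lower in lung (-2.36 ± 0.37, adjusted p = 0.000664). In liver Ppargc1a was low with deposited values but not called (-0.99), and its difference was -0.33 after median-of-ratios scaling (adjusted p = 0.444). With that scaling Ppara was also called higher in kidney (1.02, adjusted p = 0.0291). Ppargc1b, the related coactivator, was between 0.205 and 2.06 FPKM. The ratio of Ppargc1a to Ppargc1b was 14.3 and 9.31 in kidney, 3.61 and 5.60 in small intestine, 6.81 and 2.76 in lung and 2.07 and 2.30 in liver, with small intestine and lung overlapping.

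Over the 6 pairs of tissues, 26 of the 48 combinations of gene and pair were called in either direction with deposited values, where 40.4% of all such combinations over the genes tested were called. With median-of-ratios scaling 35 of the 48 were called (30.4% of all), among them all 8 genes between lung and liver, where 4 were called with deposited values. These shares cover the 6 pairs together, and counts in a single pair have no share of their own beside them. For lung minus liver the median over all genes was 1.13 with deposited values and 0.06 after scaling. Ehhadh was called in 5 of its 6 pairs and Acadl in 3, those that include kidney, with deposited values. After scaling both lost the call between kidney and liver (Ehhadh 0.61, adjusted p = 0.0991; Acadl 0.64, adjusted p = 0.0637), while Ehhadh was then called between liver and small intestine (1.63) and Acadl between lung and liver (-1.79). Liver against small intestine gave 1 call, Ppargc1a, which was lower in liver by 1.71 ± 0.47 (adjusted p = 0.0167). After median-of-ratios scaling the same pair gave calls for Cpt1a, Acadvl, Acadm, Ehhadh and Bdh1, each higher in liver, and none for Ppargc1a.

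Among the 8 genes, the tissue profiles of Cpt1a and Acadl were nearest to each other, with a root mean square difference of 0.36 over the 8 libraries on log2(FPKM + 1), each gene centred on its own mean. Those of Ehhadh and Hadha were farthest apart, at 1.89, followed by Acadl and Ehhadh at 1.64. Bdh1 and Ehhadh, the 2 genes farthest below the other tissues in lung, were 0.74 apart. Of all genes tested, the nearest profile was that of Ugt1a6a for Hadha (0.10), Tprkb for Acadvl (0.13), Tmem70 for Acadl (0.15), Cldn12 for Cpt1a (0.17), Isoc2a for Acadm (0.20), 0610005C13Rik for Bdh1 (0.31), Slc25a34 for Ppargc1a (0.34) and Acot12 for Ehhadh (0.40). The next nearest were Pex16 for Hadha, Etfdh for Acadvl, Pde6a for Acadl, Tm7sf3 for Cpt1a, Pyroxd2 for Acadm, Dnajc22 for Bdh1, Vnn1 for Ppargc1a and Sgk2 for Ehhadh. With 4 tissues and 2 libraries each, these are descriptions of shape only.

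Of 66 other genes of the pathway listed by role, 64 passed the filter. In kidney 19 were called higher and 7 lower, in small intestine 9 and 12, in liver 18 and 11 and in lung 6 and 28. With median-of-ratios scaling the counts were 26 and 6 in kidney, 38 and 8 in liver, 8 and 15 in small intestine but 2 and 47 in lung. The shares of all genes called are those given above for the same comparisons. The median difference of the 64 was 0.42 in kidney, 0.36 in liver, -0.19 in small intestine and -0.85 in lung with deposited values, where the medians over all genes were -0.34, -0.72, -0.01 and 0.82. Scaled values gave medians of 0.67 in kidney, 1.33 in liver, -0.35 in small intestine and -1.85 in lung, against -0.11, -0.14, -0.05 and -0.02 over all genes.

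In lung every role had lower calls and, with deposited values, 4 of the 8 had higher ones too. Uptake and activation had 3 genes called higher and 4 lower, the carnitine shuttle 1 and 2, peroxisomal oxidation 1 and 9 and regulation 1 and 4. After median-of-ratios scaling uptake and activation had 2 called higher and 5 lower, and no other role had a higher call, with 5 lower in the shuttle, 11 in peroxisomal oxidation, 9 in regulation and 10 of 12 in mitochondrial β-oxidation. With deposited values lower calls covered 9 of 13 genes of peroxisomal oxidation, 2 of 3 of electron transfer and 5 of 12 of mitochondrial β-oxidation. Crot, which exports peroxisomal products as carnitine esters, had the largest difference of the shuttle genes, at 7.75 and 7.83 FPKM in lung against 31.9 or more elsewhere (-2.85 ± 0.12, adjusted p = 1.1e-06). Etfa, a subunit of the flavoprotein that takes up the electrons of the dehydrogenases, stood at 43.3 and 42.7 FPKM in lung against 97.4 or more elsewhere (-1.74 ± 0.11, adjusted p = 5.05e-06). Acaa1b, a peroxisomal thiolase, was at 10.5 and 10.2 FPKM against 34.0 or more (-3.45 ± 0.19, adjusted p = 2.8e-06), though 50.1% of its 31-base words also occur in Acaa1a or Dlec1, which makes its level uncertain.

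Slc27a5, a fatty acid transport protein and bile acid CoA ligase, was at 366 and 319 FPKM in liver and below 0.6 elsewhere (7.98 ± 0.14, adjusted p = 6.91e-08), and 3 of 9 genes of uptake and activation were called higher and 3 lower, the latter near the 32.7% of all genes called lower in liver. Of peroxisomal oxidation 5 of 13 genes were called higher and 2 lower with deposited values, and 10 higher and none lower after median-of-ratios scaling. Acaa2, a mitochondrial thiolase, had the largest difference of mitochondrial β-oxidation, at 533 and 534 FPKM in liver against 191 or less elsewhere (2.22 ± 0.14, adjusted p = 1.09e-05). In kidney all 3 genes of ketone use were called higher, Oxct1 as given above, and 4 of 12 genes of mitochondrial β-oxidation were called higher and none lower. In small intestine the largest difference among regulators was that of Creb3l3, a transcription factor of liver and gut, at 120 and 156 FPKM there, 71.3 and 71.8 in liver and under 0.5 in kidney and lung (4.81 ± 0.15, adjusted p = 3.5e-07). Acacb, whose product malonyl-CoA inhibits carnitine palmitoyltransferase 1, was low throughout, between 0.277 and 3.09 FPKM, and was called in no tissue with deposited values, but higher in liver (1.47, adjusted p = 0.00171) and lower in small intestine (-1.06, adjusted p = 0.00902) after median-of-ratios scaling.

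**Figure D5:**
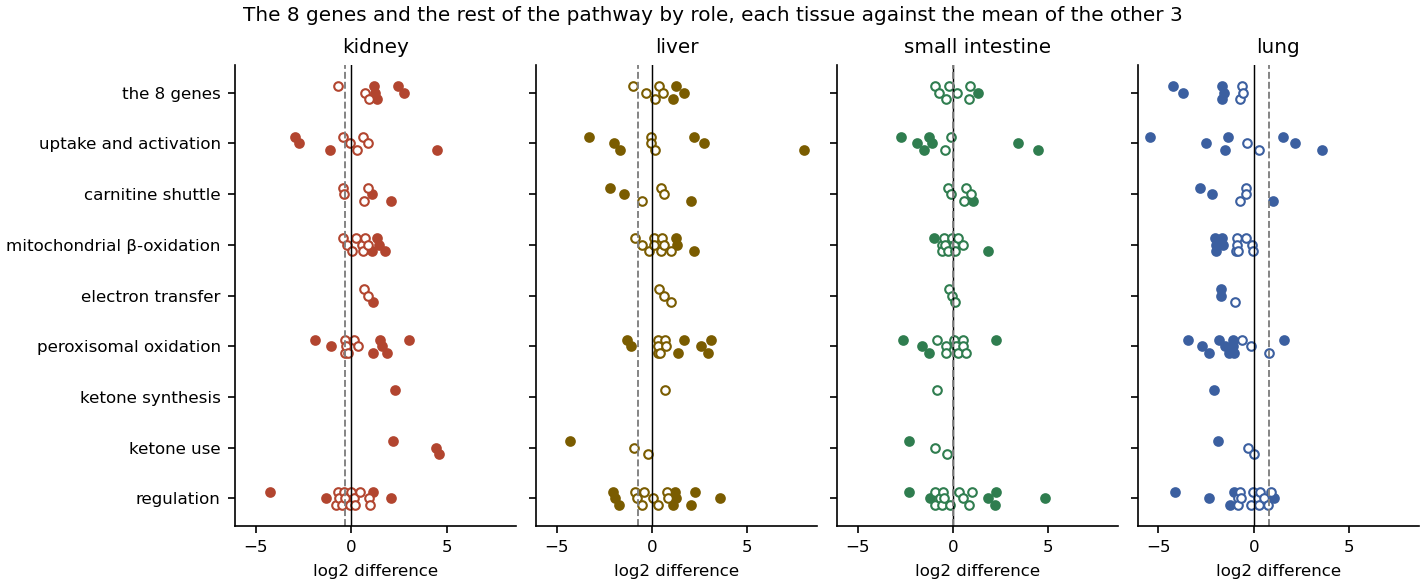
Log2 difference on log2(FPKM + 1) between each tissue and the mean of the other 3 for the 8 genes (top line) and 64 other genes of the pathway by role. Filled points were called and open points were not, and the dashed line is the median of all 16328 genes tested. In lung 28 of the 64 genes were called lower and 6 higher, and in kidney all 3 genes of ketone use lie above 2.

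Markers of tissues beside the labelled ones were present in some libraries. All 8 cardiac muscle markers were higher in both lung libraries than elsewhere, as were 51.4% of all genes tested. The 8 markers summed to 260 and 267 FPKM in lung, between 8.67 and 9.39 in small intestine and at most 1.69 in kidney and liver. Myh6 was listed at 0 in both liver libraries. The 5 adipocyte markers summed to 127 and 74.9 FPKM in lung and 53.1 and 69.2 in small intestine. In kidney and liver they summed to at most 3.03. Cfd alone held 103 and 59.0 FPKM of the lung sums, and Cidec was the largest part of both small intestine sums. Of the 5 markers, 3 were at or above 1 FPKM in both libraries of lung and of small intestine. Plin1 was at most 0.507 FPKM and Lep at most 0.127 in any library. Lep was listed at 0 in lung replicate 1 and in both kidney and both liver libraries. The 8 pancreatic acinar markers summed to 2523 and 1140 FPKM in small intestine, with all 8 above every other library (12.8% of all genes tested), and to at most 5.12 elsewhere. Skeletal muscle markers summed to 43.6 and 7.12 FPKM in lung and to 10.9 and 11.3 in small intestine. Heart and adipose tissue also use the pathway described here, and the part of these cells in the lung and small intestine levels of the 8 genes was not tested.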

How the data were processed

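Polyadenylated RNA of 4 mouse tissues was sequenced, with 2 libraries per tissue from separate mice. The authors mapped reads to the Ensembl release 75 genome (GRCm38) with STAR 2.5.3a and deposited FPKM for 52195 genes, computed with the fpkm function of DESeq2. The program that counted reads and its use of strand are not given in the sources used here. FPKM falls for every other gene of a library where a few transcripts are very abundant, and for genes with much annotated exon outside the transcript in use. Of the gene symbols 51847 (99.3%) matched 1 gene of GENCODE M21, which gave coordinates and exon lengths. FPKM times exon length gave whole numbers of reads, within 0.02, for 94.5% to 96.1% of values of up to 50 reads per library, and from these the depth. Limits of detection cover counting error only.

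All 8 libraries were fitted together with limma 3.58.1 (lmFit, eBayes with a trend, R 4.3.3) on log2(FPKM + 1) for the 16328 genes that reached 1 FPKM in 2 or more libraries. Contrasts set a tissue against the average of the other 3 and against each of them singly, with Benjamini-Hochberg adjustment over all genes tested. The step was tested on simulated data. Ratios, shares and profile distances carry no test. Tables and figures used Python 3.11.15, pandas 2.3.3, numpy 2.4.6 and matplotlib 3.10.9. Alternatives changed the pseudocount, the filter, the scaling, the trend, a replicate block, the exon length and the libraries included.

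The 8 genes, the lists and the tests were chosen with earlier results of these data known. Named beside the 8 genes were Cpt1b, Cpt2, Slc25a20, Acads, Hadhb, Oxct1, Ppara, Ppargc1b and Acacb, in each role with more than 1 gene that of the largest called difference, and for each of the 8 the 2 genes of nearest profile. Results for 3 other pathway genes are not reported here. Marker lists of 11 cell types were summed. The brown adipocyte sum was 113 and 233 FPKM in liver, all of it from Elovl3, with Ucp1 and Cidea listed at 0, and at most 2.09 elsewhere, and the adrenal cortex sum was at most 2.62 in every library.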

Additional observations from a re-analysis of the deposited data

How the results depend on the processing

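Scaling between libraries was the choice that moved most counts. With median-of-ratios scaling, the genes called lower in lung went from 5 to 8, those called higher in liver from 3 to 6 and those called lower in small intestine from 0 to 1. Quantile normalization and scaling to the same sum without mitochondrial genes and pseudogenes each also gave 1 gene called lower in small intestine, Acadm, and the latter gave 1 called lower in liver, Ppargc1a. The genes called higher in small intestine went from 1 to 2 with a pseudocount of 0.1, which added Bdh1, and to 0 with no filter on low values, where Ppargc1a lost its calls in small intestine (1.29, adjusted p = 0.0628) and kidney (1.37, adjusted p = 0.0501). Acadvl lost its liver call, at 0.90, with scaling to the same sum. Of the 32 differences of a gene in a tissue, 2 changed sign. Acadl in liver went from -0.33 to 0.68 with median-of-ratios scaling, and Acadm in liver from 0.14 to -0.033 with scaling to the same sum. Fitting without a trend and requiring an FPKM of 5 or more left all 32 calls as they were. Leaving out 1 library at a time, the genes called lower in liver ranged from 0 to 1, with Ppargc1a called at -1.22 without kidney replicate 2 and at -1.10 without small intestine replicate 1, and those called higher in small intestine from 0 to 1. Cpt1a was called higher in kidney, at 1.25, without kidney replicate 2. The combinations of gene and pair called ranged from 23 to 26. Where 1 library of a tissue was left, it was assumed to vary like the others.

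All 4 tissues were taken from each mouse, but the sources used here do not tie the replicate numbers to mice. The differences between replicates 1 and 2 correlated between tissues by -0.22 to 0.05 across genes, so that the numbers were not taken to pair the libraries. With a replicate block the fit still made 26 of the 48 pairwise calls, and no call among the 32 changed.

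Of the 28 ratios of a gene pair in a tissue, 22 moved by more than the replicate spread with the length of the principal transcript. With 2 libraries per tissue, leaving 1 out or dividing tissue means returns a ratio within that spread by construction.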
